A study of Mus musculus with 8 samples.

Results

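Chromatin occupancy at 8 genes of local steroid metabolism, *Hsd11b1*, *Hsd11b2*, *Hsd17b2*, *Srd5a1*, *Akr1c18*, *Cyp11a1*, *Star* and *Cyp19a1*, was read from 8 ChIC-Seq peak lists. The genes were chosen by name, and they are 8 of the 21938 nuclear protein-coding genes in the GENCODE annotation of mm10. A promoter peak was a peak that reached within 2000 bp of any annotated transcription start site (TSS) of the gene, and a gene-body peak lay inside the gene and reached none of these windows. ChIC-Seq (chromatin immunocleavage sequencing) uses an antibody bound to MNase to cut out the DNA around a chromatin protein. The antibodies were raised against PBRM1 and BRG1, and each was used on 3 replicates. The cells were primary stromal cells of the uterus, taken from WT mice of 8 to 12 weeks on D4. All samples share the WT genotype, the day, a brief culture after dispersal of pooled uterine horns (pseudopregnant by protocol, while the sample field names pregnancy) and a fixation of 5 minutes. The cells of a replicate came from pooled horns, and 50000 cells entered each library. The study calls its replicates biological, but the labels tie none of them to its own animals or culture, so p-values measure the spread between these samples. The 2 IgG libraries were not analysed here, and the lists were called against local background alone. The part of unspecific cutting in the peaks was not tested.

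Steroid hormones reach the uterus from the ovary and the adrenal gland, but cells of the target tissue also make, activate and destroy them. STAR carries cholesterol into mitochondria, CYP11A1 cuts its side chain to give pregnenolone, and CYP19A1 (aromatase) makes estrogen from androgen. AKR1C18 and SRD5A1 inactivate or reduce progesterone, HSD17B2 oxidizes estradiol to the weaker estrone, and the 11-beta-hydroxysteroid dehydrogenases HSD11B1 and HSD11B2 activate and inactivate corticosterone. PBRM1 (BAF180) is the bromodomain subunit that defines the PBAF form of the SWI/SNF chromatin remodeler, and BRG1 is an ATPase of PBAF and of other SWI/SNF forms.

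Of the 8 genes, 5 had a promoter peak in the pooled PBRM1 list and the same 5, *Hsd11b1*, *Hsd11b2*, *Hsd17b2*, *Srd5a1* and *Star*, had one in the pooled BRG1 list. Over all protein-coding genes the shares were 68.6% for PBRM1, 72.1% for BRG1 and 67.7% for both lists, against 62.5% of the 8 genes in each case, so the count is near the background. Replicates separated the 5 genes. *Srd5a1* and *Star* had a promoter peak in all 3 PBRM1 replicates (52.2% of protein-coding genes did), and *Srd5a1*, *Star*, *Hsd11b1* and *Hsd11b2* in all 3 BRG1 replicates (61.4% did). In all 6 replicate lists there were 2 genes, *Srd5a1* and *Star*, beside a background of 51.9%. *Hsd17b2* was found in 1 replicate of PBRM1 and in none of BRG1. *Akr1c18*, *Cyp11a1* and *Cyp19a1* had no promoter peak in any of the 8 lists, as was the case for 26.5% of protein-coding genes. PBRM1 replicate 1 decided the PBRM1 count. Without it, 4 genes rather than 2 were shared by the PBRM1 replicates (53.5% of protein-coding genes) and by all remaining lists (52.9%). It had the fewest fragments, 8868777, but its 22976 peaks outnumbered the 21912 of PBRM1 replicate 3, which had 16505239 fragments. With peaks limited to a −log10 q of at least 5, *Srd5a1* was the 1 gene in all 3 PBRM1 replicates, where 42.8% of protein-coding genes were.

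**Figure D1:**
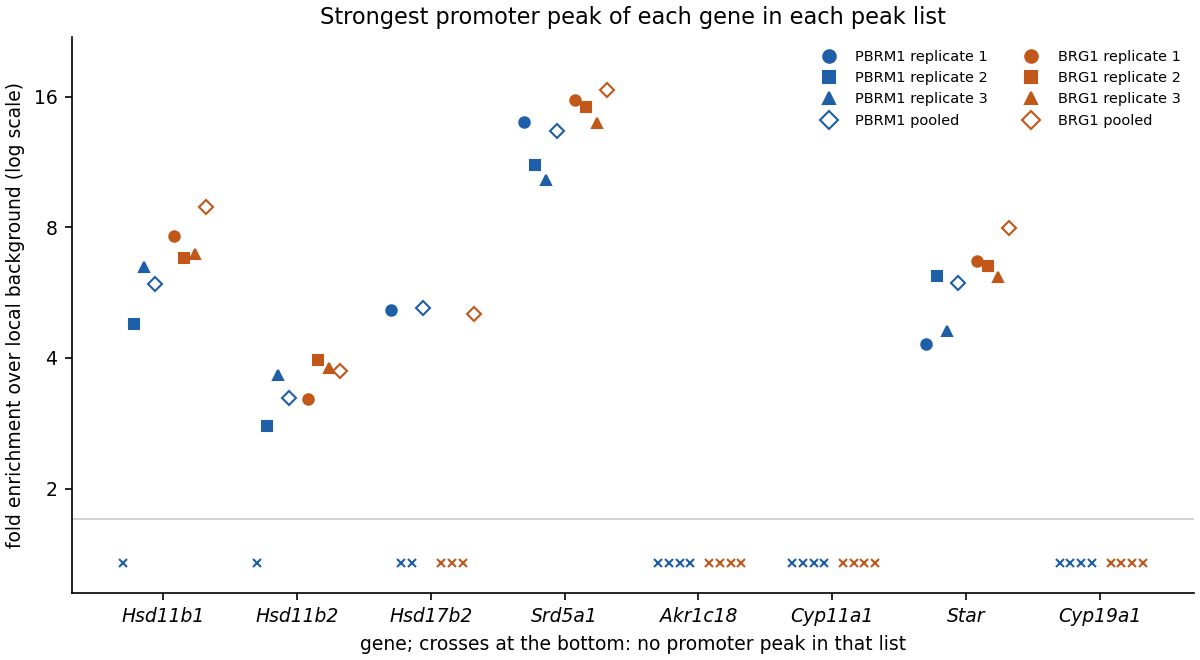
Fold enrichment over local background (y axis, log scale) of the strongest promoter peak of each of the 8 genes (x axis) in the 3 PBRM1 lists, the 3 BRG1 lists and the 2 pooled lists, where a cross at the bottom stands for a list without a promoter peak. *Srd5a1* lies between 10.3 and 16.5 in every list, *Hsd11b2* stays below 4, and 3 genes show crosses throughout.

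The number of the 8 genes with a promoter peak was 3, 4 and 4 in PBRM1 replicates 1, 2 and 3, and 4 in each BRG1 replicate. Over all protein-coding genes the shares were 60%, 60.7% and 55.3% in the PBRM1 replicates and 66.1%, 65.1% and 65% in the BRG1 replicates. The means of 3.67 ± 0.577 (SD, n = 3) and 4 ± 0 (SD, n = 3) differed by -0.33 genes (two-sided exact permutation test, p = 1). With 3 lists against 3, this test cannot give a p below 0.1. At a −log10 q of at least 5 the counts were 1, 2 and 3 for PBRM1 and 4 in each BRG1 replicate. The difference was -2 genes at that smallest p (exact permutation test, p = 0.1). The per-replicate shares of all protein-coding genes at this cutoff were not counted. A difference between whole lists therefore cannot be told apart from one at the 8 genes.

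*Srd5a1*, which encodes the type 1 steroid 5-alpha-reductase, had the strongest promoter peak of the 8 genes. The gene lies on chromosome 13 (69573449 to 69611442, minus strand, mm10), and its main TSS at 69611442 is 574 bp from the closest TSS of *Nsun2*, a neighbor transcribed in the opposite direction. The peak reached within 2 kb of start sites of both genes in every list, so it cannot be given to one of them. Fold enrichment was 14.0, 11.1 and 10.3 in PBRM1 replicates 1 to 3 and 15.8, 15.2 and 14.0 in BRG1 replicates 1 to 3. The pileup, the number of fragments over the summit, was 53 to 56 in the PBRM1 replicates and 88 to 114 in the BRG1 replicates. Summits stayed within 30 bp of each other in PBRM1 and within 18 bp in BRG1, and both pooled summits fell on the same base, 69611623. The sequence around this summit is shown because this site ranked above percentile 98 in every list. It is the 300 bases of chr13:69611486-69611785 on the *Srd5a1* strand, with the summit at base 163 and a CCAAT box in capitals, and it holds 26 CpGs.
Srd5a1: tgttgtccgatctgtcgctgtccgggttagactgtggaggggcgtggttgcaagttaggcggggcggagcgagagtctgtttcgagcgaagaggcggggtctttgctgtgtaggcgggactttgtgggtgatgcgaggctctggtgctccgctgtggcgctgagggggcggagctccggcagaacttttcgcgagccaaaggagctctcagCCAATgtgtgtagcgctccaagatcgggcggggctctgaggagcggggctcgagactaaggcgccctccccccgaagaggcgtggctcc

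Fold enrichment depends on the depth of each library, so peaks were also placed by their q-value within their own list. The lists differ in length, with 21912 to 26363 peaks for PBRM1 and 36656 to 40610 for BRG1, and a percentile depends on that length. The *Srd5a1* peak ranked at percentile 98.8, 98.2 and 98.9 of PBRM1 replicates 1 to 3 and at 99.8, 99.7 and 99.4 of BRG1 replicates 1 to 3. The BRG1 percentiles were all above the PBRM1 percentiles. The means, 98.6 ± 0.413 and 99.6 ± 0.179 (SD, n = 3 each), differed by -1.01 percentile points (exact permutation test, p = 0.1, the smallest possible, and 0.2 after Benjamini-Hochberg adjustment over the 2 genes tested). Ranked by fold enrichment instead, the difference of -0.83 points had p = 0.3 by the same exact test. Among the 21938 protein-coding genes, a number that is the same for every list, the *Srd5a1* promoter stood at 98.7, 97.7 and 98.9 in PBRM1 and 99.7, 99.5 and 99.0 in BRG1, a difference of -1.0 points (exact permutation test, p = 0.1). This ranking was chosen after seeing the data.

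*Star*, the steroidogenic acute regulatory protein that limits the entry of cholesterol into steroid synthesis, had a promoter peak in every list, although it is best known from ovary and adrenal. The gene lies on chromosome 8 (25806555 to 25815982, plus strand), with a TSS at 25806555 and a second at 25808474, the one that RefSeq also gives. The peaks sat just upstream of the first, which RefSeq lacks. The replicate peaks ended at 25806532 to 25806569, so they reached only the outer edge of the promoter window of the second. With the RefSeq start sites *Star* was still counted in every list, but its peaks were not close to the RefSeq TSS. Fold enrichment was 4.30, 6.19 and 4.61 in PBRM1 replicates 1 to 3 and 6.70, 6.50 and 6.13 in BRG1 replicates 1 to 3. These peaks rest on 9 to 17 fragments at the summit in PBRM1 and 14 to 18 in BRG1, far fewer than at *Srd5a1*. The PBRM1 summits were at -284, -289 and -344 bp from the first TSS and the BRG1 summits at -145, -47 and -161 bp. These summit ranges did not overlap, but the peaks did. In the pooled lists the peaks spanned 25805976 to 25806576 for PBRM1 and 25806197 to 25806611 for BRG1. In the pooled lists the fold enrichment was 5.96 for PBRM1 and 7.98 for BRG1. The percentiles were 15.6, 58.8 and 43.0 for PBRM1 and 62.9, 57.6 and 57.0 for BRG1. These ranges overlapped, and the difference was -20.0 points (exact permutation test, p = 0.3, adjusted p = 0.3). Its direction depended on the ranking. Among all protein-coding genes *Star* stood at 42.1, 56.0 and 54.5 in PBRM1 and at 47.1, 46.3 and 45.7 in BRG1, a difference of 4.49 points (exact permutation test, p = 0.4), so no order of the antibodies can be given. By list percentile, without PBRM1 replicate 1 the difference was -8.27 points and without PBRM1 replicate 2 it was -29.9 points.

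*Hsd11b1* encodes the reductase that turns inactive 11-dehydrocorticosterone into corticosterone. It spans chromosome 1 from 193221634 to 193264075 on the minus strand and has alternative promoters. The distal one (TSS at 193264075, 1 transcript) is 21446 bp upstream of the main proximal TSS at 193242629, which belongs to a proximal group of 6 transcripts. PBRM1 and BRG1 peaks were found at both, and the proximal promoter carried the stronger peak in each list that had one.

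At the proximal promoter the fold enrichment was 4.80 in PBRM1 replicate 2 and 6.47 in PBRM1 replicate 3, and PBRM1 replicate 1 had no peak. In BRG1 replicates 1 to 3 the strongest peak had 7.64, 6.81 and 6.93, a mean of 7.13 ± 0.449 (SD, n = 3). The pileups were 13 and 20 fragments in PBRM1 and 26, 17 and 19 in BRG1. The PBRM1 summits lay 86 and 1 bp downstream of the main proximal GENCODE TSS and the BRG1 summits 191, 184 and 185 bp downstream. All were in untranslated exon sequence of that transcript. This placement depends on the annotation, since RefSeq has proximal TSSs at 193242360 and 193243494, and these summits lie between them. BRG1 replicates 1 and 2 had a second, weaker peak upstream of the TSS, with summits at -372 and -392 bp and fold enrichments of 3.95 and 4.85. The pooled BRG1 peak, with 62 fragments and a fold enrichment of 8.92, covered both positions, while the pooled PBRM1 peak reached 37 fragments and 5.92.

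At the distal promoter no PBRM1 replicate had a peak. BRG1 had 1 in each replicate, but not at the same place. In replicate 1 the summit was 342 bp downstream of the TSS, in an intron, with a fold enrichment of 3.86. In replicates 2 and 3 it was upstream, at -206 and -185 bp, with 5.14 and 4.47. These are small peaks of 9 to 11 fragments. The pooled BRG1 list held both sites, at 6.11 upstream and 4.14 downstream, and the pooled PBRM1 list held an upstream site at 4.31 and a downstream one at 4.31, each on 20 or 21 fragments. The downstream site was within 2 kb of the TSS of *Gm38118*, an unconfirmed transcript on the same strand. Every BRG1 replicate thus had a peak at both promoters, and PBRM1 had a distal peak in the pooled list alone. The PBRM1 difference between the promoters was not tested, since a list without a peak gives no value.

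**Figure D2:**
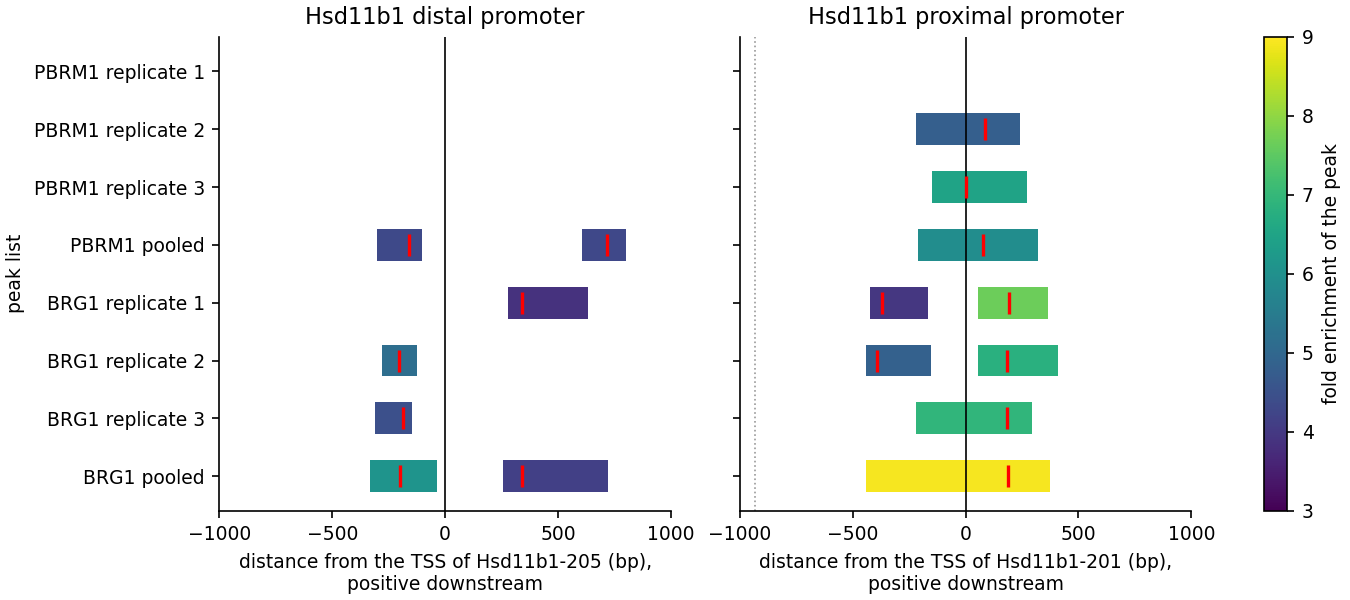
Promoter peaks of *Hsd11b1* in the 8 lists (rows), drawn by distance in bp from the TSS of the distal transcript (left) and of the main proximal transcript (right, where the dotted line is another TSS). Bars span the peaks, colors give fold enrichment and red ticks mark summits. The distal promoter has no bar in the 3 PBRM1 replicates, and the BRG1 summits of the proximal promoter line up 184 to 191 bp downstream.

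The sequences upstream of the 2 promoters are shown on the *Hsd11b1* strand, as the parts common to both pooled peaks without exon sequence. The proximal one is chr1:193242630-193242841 and ends at the base before the main proximal TSS. It has no CpG, 71.7% of its bases are pyrimidines, and none of the motifs searched lies in it. The distal one is chr1:193264177-193264375, with the BRG1 summit at base 99, the PBRM1 summit at base 141 and a pair of CCAAT boxes in capitals.
Hsd11b1 proximal: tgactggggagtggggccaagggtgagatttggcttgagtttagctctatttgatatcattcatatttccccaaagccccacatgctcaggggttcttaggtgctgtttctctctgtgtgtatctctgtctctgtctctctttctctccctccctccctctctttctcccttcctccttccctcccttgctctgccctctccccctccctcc
Hsd11b1 distal: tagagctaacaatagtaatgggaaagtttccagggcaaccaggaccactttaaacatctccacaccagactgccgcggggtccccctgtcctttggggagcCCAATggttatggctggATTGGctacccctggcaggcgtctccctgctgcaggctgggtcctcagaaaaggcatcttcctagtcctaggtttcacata

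*Hsd11b2* encodes the opposing enzyme, which oxidizes corticosterone to its inactive form. The gene is short (chromosome 8, 105518755 to 105523988, plus strand) and has 1 TSS. Its promoter peaks were the weakest of the 5 genes in fold enrichment, with 2.79 and 3.65 in PBRM1 replicates 2 and 3 and 3.22, 3.95 and 3.80 in BRG1 replicates 1 to 3. The BRG1 mean was 3.66 ± 0.383 (SD, n = 3). In PBRM1 replicate 1 the nearest peak, at 105515914 to 105516342 with a fold enrichment of 3.80, stopped 2413 bp short of the TSS and so fell outside the promoter window. The pileup at *Hsd11b2* was not low. The pooled BRG1 peak held 72 fragments, more than the 62 at *Hsd11b1*, and the pooled PBRM1 list held 46 at its stronger peak. MACS divides the pileup plus 1 by the local background plus 1, so the background it used can be recovered, and it was 18.6 fragments for BRG1 and 13.5 for PBRM1, or 7.43 and 4.48 times the genome-wide level. At the proximal *Hsd11b1* promoter the same ratios were 2.43 and 1.80. At *Srd5a1*, which had the strongest peak, they were 6.78 and 3.75. The lists had no control, so this background was drawn from the same library over 10000 bp and includes the peak itself. The part of the peak in these ratios was not tested. The summits fell into 2 places. One was in exon 1 or the start of the following intron, 276 to 378 bp downstream of the TSS in PBRM1 replicate 3 and the BRG1 replicates. The other was upstream of the TSS, at -252 bp in PBRM1 replicate 2 and at -59 and -74 bp in BRG1 replicates 1 and 3.

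**Figure D3:**
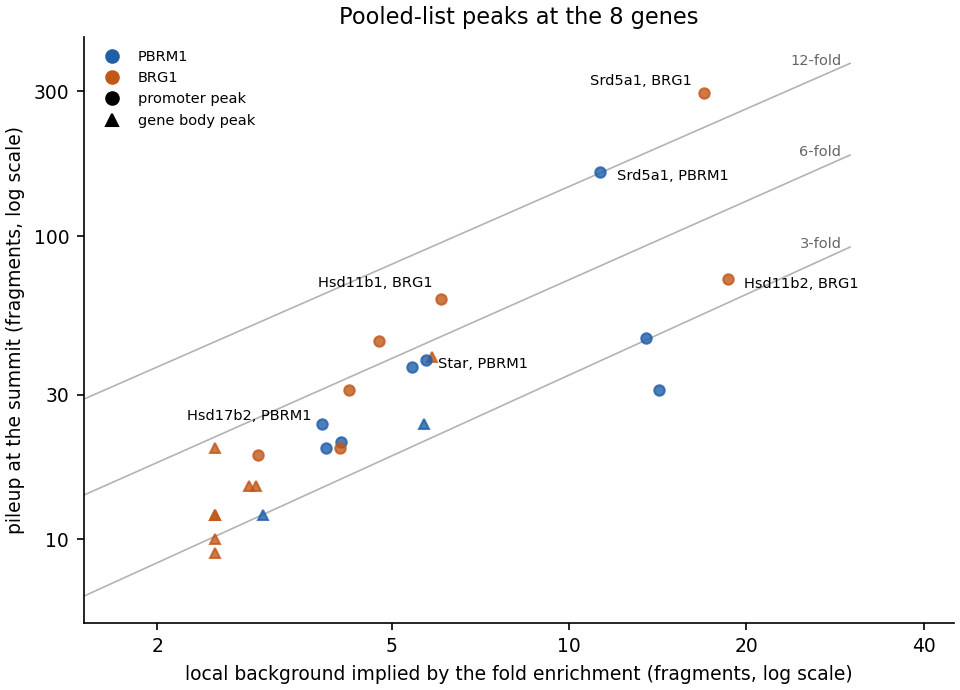
Pileup at the summit (y axis, fragments, log scale) against the local background that the fold enrichment implies (x axis, fragments, log scale) for the pooled-list peaks of the 8 genes, with lines of equal fold enrichment. Colors give the antibody, circles are promoter peaks and triangles gene-body peaks. The *Hsd11b2* peaks combine 31 to 72 fragments with a background of 13.5 to 18.6. The *Srd5a1* promoter peaks reached 163 (PBRM1) and 296 (BRG1) fragments with backgrounds of 11.3 and 16.9.

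*Hsd17b2*, the estradiol-oxidizing dehydrogenase, had little replicated signal. The gene lies on chromosome 8 (117701904 to 117759027, plus strand). A promoter peak in exon 1 was called in PBRM1 replicate 1, with 9 fragments and a fold enrichment of 5.15, and in no other replicate of either antibody. Both pooled lists had it, with 24 fragments and 5.21 for PBRM1 and 19 fragments and 5.04 for BRG1. No single BRG1 replicate passed the q-value cutoff there, where the lowest pileup of any called peak was 5 to 6 fragments in a BRG1 replicate. Inside the gene, a PBRM1 peak of 7 fragments (3.91) was seen in replicate 2 and in the pooled list (3.23), and a BRG1 peak of 6 fragments (3.46) at another site in replicate 1.

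*Cyp11a1*, the side-chain cleavage enzyme that starts steroid synthesis, had no promoter peak by the GENCODE start sites, but peaks lay close by. The gene is on chromosome 9 (58006411 to 58027023, plus strand). A peak in an intron, with summits 2583 to 2832 bp downstream of the TSS at 58006411, was called in PBRM1 replicate 3 (3.94), in BRG1 replicates 1 (5.84) and 2 (5.39) and in both pooled lists (3.75 for PBRM1 and 5.98 for BRG1). Its edge was 2257 bp from the TSS in the pooled BRG1 list, just outside the promoter window. Widening the window to 5000 bp brought it in. RefSeq places another *Cyp11a1* TSS at 57998024, beside the start of the noncoding RNA gene *Gm17322*. With the RefSeq start sites, an analysis chosen after seeing the data, PBRM1 replicate 2 had a peak within 2 kb of it (3.79). So did all 3 BRG1 replicates (3.70, 3.50 and 5.94 at the strongest) and the pooled lists (3.66 for PBRM1 and 4.61 for BRG1). The BRG1 peaks were not at the same place. Their summits lay 111 and 162 bp downstream of this TSS in replicates 1 and 2 and 1082 bp downstream in replicate 3. The pooled BRG1 peak of 4.61 was at 1091 bp, with a weaker one (4.05) at 162 bp. The intron sequence common to the pooled peaks is shown as the best replicated gene-body site of a gene without a promoter call. It is chr9:58009054-58009353, plus strand, with the PBRM1 summit at base 147, the BRG1 summit at base 190 and an AP-1 motif and a pair of CCAAT boxes in capitals.
Cyp11a1: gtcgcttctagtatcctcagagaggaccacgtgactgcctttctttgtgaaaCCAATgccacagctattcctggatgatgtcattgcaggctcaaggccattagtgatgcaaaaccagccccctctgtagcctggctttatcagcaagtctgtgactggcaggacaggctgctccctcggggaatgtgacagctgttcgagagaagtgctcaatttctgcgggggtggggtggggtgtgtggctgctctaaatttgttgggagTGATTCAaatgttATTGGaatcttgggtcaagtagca

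*Cyp19a1*, which encodes aromatase, had no PBRM1 peak anywhere in its 102174 bp on chromosome 9 (54165937 to 54268110, minus strand). The pooled BRG1 list had 4 gene-body peaks of 9 to 20 fragments and fold enrichments of 2.85 to 5.99. The strongest lay in the untranslated end of the last exon and was the only one called in a replicate (BRG1 replicate 3, 8 fragments, 5.11). BRG1 replicate 3 also had a peak of 5 fragments (3.31) whose edge was 2151 bp from the nearest *Cyp19a1* TSS, again just beyond the window. At all 4 pooled sites the implied background was 1.00 times the genome-wide level. *Cyp19a1* is known to use tissue-specific promoters, and none of its 4 groups of GENCODE start sites had a promoter peak. With the RefSeq start sites the peak of BRG1 replicate 3 (3.31) was within 2 kb of a TSS at 54193743, and a pooled BRG1 peak (3.71) was within 2 kb of a TSS at 54228914.

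*Akr1c18*, the 20-alpha-hydroxysteroid dehydrogenase that inactivates progesterone, was the emptiest locus. It lies on chromosome 13 (4132615 to 4150654, minus strand), and no list had a peak in it. The nearest peak to its TSS was 80454 to 232436 bp away in the 8 lists. The gene sits in a cluster of similar *Akr1c* genes, and the authors removed reads of low mapping quality, whose part in this was not tested. The 250 bases before its TSS, chr13:4150655-4150904 on the minus strand, are given for comparison. They hold 5 CpGs and none of the motifs, and hence no capitals.
Akr1c18: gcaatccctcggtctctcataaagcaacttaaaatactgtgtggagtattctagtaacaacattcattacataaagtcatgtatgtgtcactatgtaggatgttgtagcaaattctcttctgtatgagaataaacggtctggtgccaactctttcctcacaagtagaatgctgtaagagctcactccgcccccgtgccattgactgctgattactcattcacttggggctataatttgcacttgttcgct

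All 8 pooled PBRM1 promoter peaks overlapped a pooled BRG1 peak and all 7 pooled BRG1 promoter peaks overlapped a pooled PBRM1 peak. Over the promoter peaks of all protein-coding genes 92.1% of PBRM1 and 76.3% of BRG1 peaks did so, and over the whole lists 78.6% and 52.4%. In the pooled lists, gene-body peaks were found in 2 genes with PBRM1 (*Hsd17b2* and *Cyp11a1*) and in 4 with BRG1 (*Hsd11b1*, *Srd5a1*, *Cyp11a1* and *Cyp19a1*). The background shares were 32.6% and 40.9% of the 19520 protein-coding genes that extend beyond their promoter windows. Of the 8 pooled BRG1 gene-body peaks, the *Cyp11a1* intron peak overlapped PBRM1 and the other 7 did not. These 7 had 9 to 20 fragments, where the lowest pileup of any pooled BRG1 peak was 9. The overlap share for gene-body peaks of all protein-coding genes was not counted, so 7 of 8 has no matching background. With a −log10 q of at least 5, gene-body peaks were left in 1 gene for PBRM1 (21.5% of protein-coding genes) and 2 for BRG1 (30.1%).

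The 8 genes differed in the CpG content of their promoters, a feature that the choice of genes did not use. CpG-rich promoters belong mostly to broadly expressed genes. In 501 bp around the TSS at the 5′ end of the gene, the CpG observed over expected was 0.65 at *Srd5a1* and 0.69 at *Hsd11b2*, and it was below 0.6 at the other 6 genes. Among the 10744 protein-coding genes at or above 0.6, 82.7% had a promoter peak in all 3 PBRM1 replicates and 92.9% in all 3 BRG1 replicates. Among the 11186 genes below it, the shares were 22.8% and 31.1%. *Srd5a1* had all 6 and *Hsd11b2* 5 of 6 replicate lists. Of the 6 CpG-poor genes, 1 (*Star*) had a promoter peak in all PBRM1 replicates and 2 (*Star* and *Hsd11b1*) in all BRG1 replicates. The values at these were 0.12 at *Star*, 0.14 at the distal and 0.16 at the main proximal *Hsd11b1* TSS. The genes without a promoter peak had 0.42 (*Cyp11a1*), 0.19 (*Cyp19a1*) and 0.23 (*Akr1c18*) at their 5′ ends. Over all their start sites *Cyp11a1* ranged from 0.097 to 0.42 and *Cyp19a1* from 0.10 to 0.34, which overlaps the values of *Star* and *Hsd11b1*. *Hsd17b2* (0.35) had 1 of the 6 replicate lists.

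**Figure D4:**
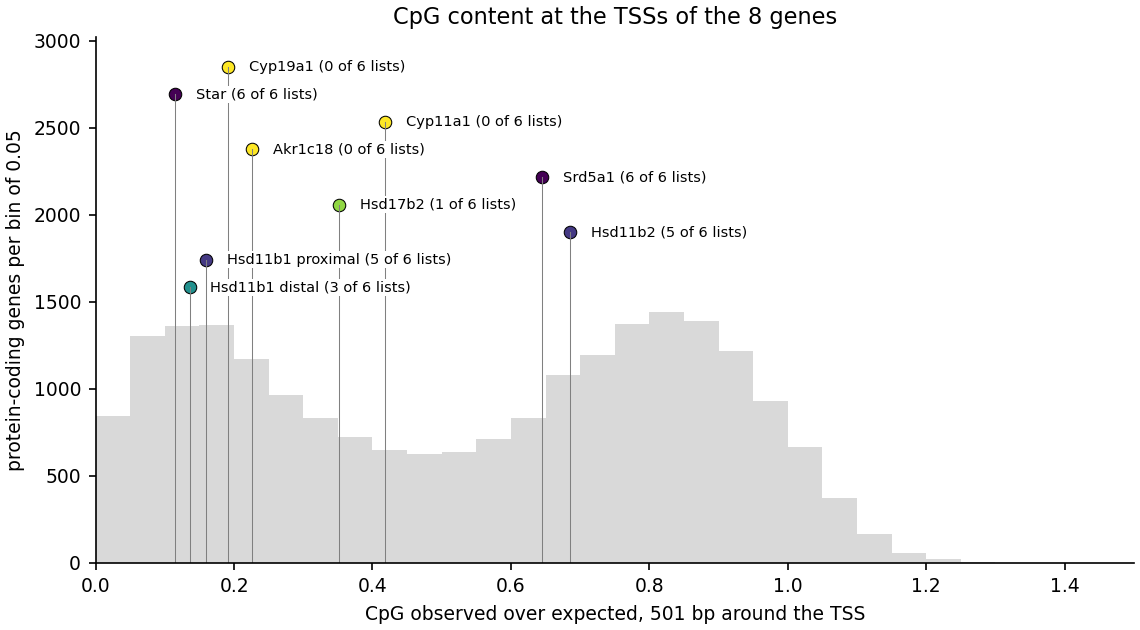
CpG observed over expected in 501 bp around the 5′-end TSS of the 8 genes and the main proximal TSS of *Hsd11b1* (points, with the number of replicate lists that have a peak at that promoter) over the histogram of all protein-coding genes at their 5′ ends (gray bars, genes per bin of 0.05), where the height of a point carries no value. *Star* and both *Hsd11b1* promoters lie at 0.12 to 0.16, in the CpG-poor mode of the histogram, and *Srd5a1* and *Hsd11b2* lie at 0.65 and 0.69.

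Short motifs were counted on both strands in 501 bp around the pooled promoter summits of the 5 genes with a promoter peak. The AP-1 motif TGANTCA was present at *Hsd11b1* (distal promoter), *Hsd17b2* and *Star*, in 6 of 15 windows. It was in 17.1% of such windows over all pooled PBRM1 peaks, in 17.5% over BRG1 peaks and in 9.61% around the start sites of protein-coding genes. The half-site of the glucocorticoid and progesterone receptors, AGAACA, was present at *Hsd11b2* and *Star*. It was in 2 of 15 windows, against 30.6% and 32.1% of all windows. CCAAT was present at *Hsd11b1*, *Hsd11b2* and *Srd5a1*, in 9 of 15 windows (42.9% and 44.1% of all windows). CAAGGTCA, a form bound by the NR5A receptors that drive steroidogenic genes, was in none of the 15 windows, nor were the C/EBP motif TTGCNNAA and the TATA box motif, TATAAA, with shares of 3.22%, 17.3% and 15.8% over all PBRM1 windows. Windows of the 2 antibodies at one promoter overlap, so they are not independent.

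The protein-coding genes whose 6 percentiles were closest to those of *Hsd11b1* were *Fhad1*, *Atp6v1f*, *Pgbd1*, *Tgds* and *Zfp975*, with Euclidean distances of 10.5 to 18.7 percentile points over the 6 lists. *Hsd11b1* itself had no peak in PBRM1 replicate 1 (set to 0), 36.4 and 72.3 in the other PBRM1 replicates and 73.6, 63.6 and 66.2 in the BRG1 replicates. The calls behind this pattern, a promoter peak in every replicate except PBRM1 replicate 1, were shared by 238 protein-coding genes.

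The wider pathway was split by step. All 11 genes of cholesterol delivery, *Star* among them, had a promoter peak in all 6 replicate lists, and so did 5 of 6 genes of side-chain cleavage and its electron and NADPH supply, all but *Cyp11a1*. None of the 4 genes of progesterone synthesis (*Hsd3b1*, *Hsd3b2*, *Hsd3b3* and *Hsd3b6*) had a promoter peak in any list. Among genes that break down or reduce progesterone, 2 of 10 had all 6 lists (*Srd5a1* and *Srd5a3*), 3 had some and 5 had none. No gene of corticosteroid metabolism had all 6, and *Hsd11b1* and *Hsd11b2* were the only 2 of 5 with any. The list for androgens and estrogens had 5 of 15 with all 6, and estrogen conjugation and hydroxylation 3 of the 5 genes found in the annotation. Together 26 of 56 genes (46.4%) had all 6, near the background of 51.9%. The median fold enrichment of the pooled promoter peaks was 7.14 for PBRM1 over these lists and 6.90 over all protein-coding genes, and 9.85 and 8.74 for BRG1.

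**Figure D5:**
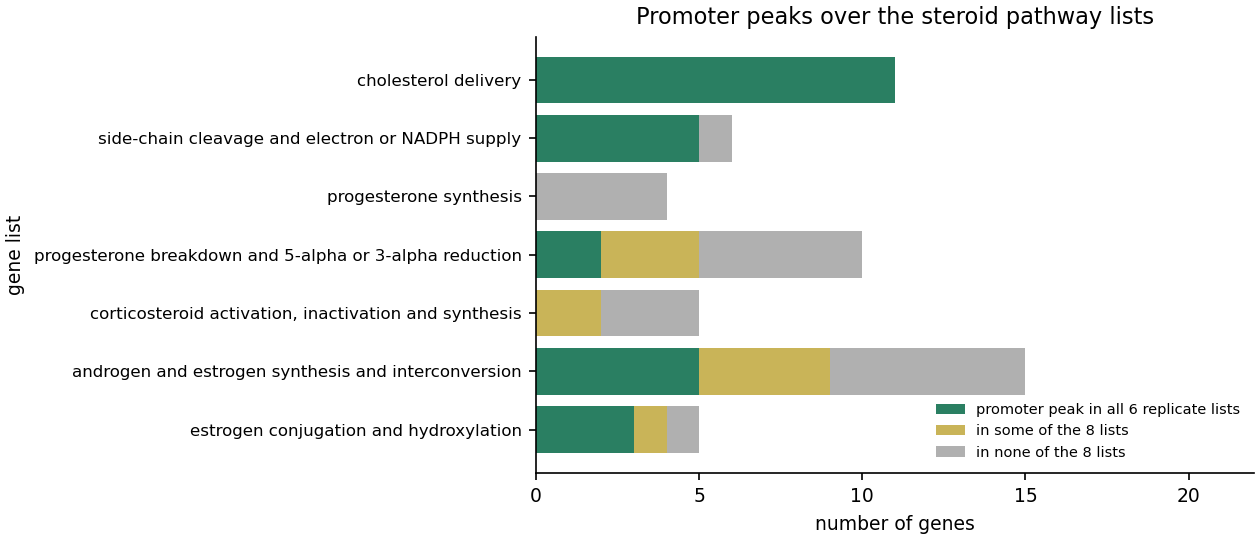
Number of genes (x axis) in each steroid pathway list (y axis) with a promoter peak in all 6 replicate lists, in some of the 8 lists, or in none. Cholesterol delivery is filled by genes with all 6 (11 of 11), and progesterone synthesis by genes with none (4 of 4).

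The strongest of these genes outside the 8 were *Hsd17b7*, with a mean fold enrichment of 12.9 ± 2.05 (SD, n = 3) for PBRM1 and 17.4 ± 0.956 for BRG1, *Npc2* (13.2 ± 0.562 and 16.7 ± 0.787) and *Hsd17b12* (12.2 ± 1.02 and 16.1 ± 1.62). *Stard4*, *Hsd17b4* and *Srd5a3* followed, with pooled PBRM1 values of 13.1, 11.5 and 11.1. The *Hsd17b7* peak was also within 2 kb of a TSS of *3110045C21Rik* and the *Npc2* peak of *Isca2*, so they too cannot be given to one gene. HSD17B7 and HSD17B12 also act in cholesterol and fatty acid synthesis, and NPC2 exports cholesterol from lysosomes. The pathway genes outside the 8 without a promoter peak in any list numbered 17. Beside the *Hsd3b* genes they were *Akr1c20*, *Akr1c21*, *Akr1c12*, *Akr1c13* and *Akr1c6*, *Cyp11b1*, *Cyp11b2* and *Cyp21a1*, *Hsd17b1*, *Hsd17b3*, *Hsd17b6* and *Hsd17b13*, and *Sult1e1*. Several of them, such as the *Hsd3b* and *Akr1c* genes, belong to families of similar genes. The authors removed reads of low mapping quality, and the part of this in the missing calls was not tested.

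Markers of the cells were read in the same way. Over all protein-coding genes, 51.9% had a promoter peak in all 6 replicate lists, 67.7% in both pooled lists and 26.5% in none. Of 10 uterine stroma genes, 6 had a promoter peak in all 6 replicate lists, which is near that background. All 10 had one in both pooled lists. Epithelial genes had pooled peaks as well (9 of 10 with PBRM1 and 10 of 10 with BRG1, 1 in all 6 replicate lists), and 5 of 6 immune genes had none in any list. Endothelial genes had all 6 in 1 of 5 cases and smooth muscle genes in 2 of 5. Of 6 genes of luteal steroid-producing cells, *Star* was the only one in all 6, and 2 had none. A peak is no measure of expression, and the part of other cells in the peaks at the 8 genes was not tested.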

How the data were processed

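ChIC-Seq peak lists for PBRM1 and BRG1 in D4 uterine stromal cells of WT mice were used (3 replicates each and 1 pooled list per antibody). Samples were grouped by their labels. No IgG library was used. Reads were, by the study's account of its procedures, trimmed with cutadapt and aligned to mm10 with Bowtie2. The authors then removed low mapping qualities and duplicates, and MACS 2.2.7.1 was their peak caller. For every peak the deposited lists hold the pileup (a signal), the ratio to local background (fold enrichment) and a −log10 q-value, with a q-value cutoff of 0.05, a background of 10000 bp and no control, per the file headers. The fragments per replicate ranged from 8868777 to 16505239 for PBRM1 and from 11506964 to 14595089 for BRG1. Small pileups carry a large counting error.

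Peaks were intersected (minimum 1 bp) with the full GENCODE annotation, which is on the build of the lists, in Python 3.11.15 with numpy 2.4.6 and pandas 2.3.3. Where a list had several promoter peaks at a gene, the strongest by q-value was taken. Percentiles are ranks by q-value within a list. Antibodies were compared by two-sided exact permutation tests over 3 lists against 3. Sequences came from RefSeq's copy of GRCm38.p6 and are shown for 4 of the 8 genes, each with an entry in its promoter table. CpG and motif windows are 501 bp. The overlap steps were tested on simulated data. The named genes are the 8 genes, the 6 further pathway genes whose pooled PBRM1 enrichment ranked first among those in all 6 replicate lists, those without any promoter peak, the 5 nearest to *Hsd11b1* and genes whose TSS shares a promoter peak. The genes, lists and tests were chosen with earlier results of these data known. Other distances, transcript sets, thresholds, left-out replicates and a replicate block were tried as alternatives.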

Additional observations from a re-analysis of the deposited data

How the results depend on the processing

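Promoter counts of the 8 genes were recomputed with windows of 500, 1000 and 5000 bp, protein-coding or basic transcripts, RefSeq start sites (chosen after seeing the data), summits, a −log10 q of at least 5 or a fold enrichment of at least 4. Of 90 recomputed counts and differences, 79 stayed within 1.5 times the reported count or kept the direction of the difference. For the differences this tally could judge the direction alone and not the size, because these tests cannot give a p below 0.1. The difference between the antibodies was -0.33 in the report, -2 at a −log10 q of at least 5 (p = 0.1, the smallest possible by the exact permutation test), -1.33 with RefSeq start sites (p = 0.3) and -0.67 at 5000 bp (p = 0.4). For the difference of -2, the shares of all protein-coding genes at that cutoff were not counted per replicate. A −log10 q of at least 5 left 1 gene in all 3 PBRM1 replicates and 1 in all 6 lists. It left 1 (PBRM1) and 2 (BRG1) genes with a gene-body peak. A fold enrichment of at least 4 gave a difference of 0 between the antibodies and 0 genes with a PBRM1 gene-body peak. Counting the whole gene gave 6 and 7 genes for PBRM1 and BRG1, by construction, since promoter peaks were added. With each replicate left out, genes in all remaining PBRM1 replicates numbered 2 to 4, in all remaining lists 2 to 4 and in all remaining BRG1 replicates 4, and the difference was -0.5 to 0. The highest of these came without PBRM1 replicate 1. By construction, a count of genes in all remaining lists can only stay or rise when a list is left out. Such counts are among the 90. Ranked among all protein-coding genes (chosen after seeing the data), the *Star* difference reversed to 4.49 points (exact permutation test, p = 0.4), and the cause was not tested.

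The labels do not say whether same-numbered libraries of the 2 antibodies share cells, so they were treated as unpaired. Deviations of same-numbered libraries correlated at -0.04, -0.011 and -0.011 over 13093 common peaks, and those of other pairs at -0.017 to 0.029. These values cannot settle the pairing, since deviations of different antibodies need not correlate in shared cells. With a replicate block (exact paired permutation, smallest p 0.25) the difference was -0.33 (p = 1), and the percentile differences were -1.01 for *Srd5a1* (p = 0.25) and -20.0 for *Star* (p = 0.5). The calls at *Hsd17b2*, *Cyp19a1* and the distal *Hsd11b1* promoter rest on 5 to 11 fragments in the replicates, where the lowest pileup called was 5 to 7. The part of depth in missing calls was not tested, and PBRM1 replicate 3, the deepest library, had the fewest peaks.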
